A study of Mus musculus with 2 samples.

Results

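The 42 genes described here encode the receiving side of Wnt signalling, from the receptors at the cell surface to the transcription factors in the nucleus, together with the core genes of planar cell polarity. They were taken by gene symbol from the 38926 features listed for each library, and all 42 symbols were found. The tissue was the pleuroperitoneal fold (PPF), a transient paired structure of the mouse embryo that gives rise to the muscle connective tissue and central tendon of the diaphragm and receives the migrating muscle progenitors. PPFs were dissected from wild type embryos of a mixed 129s/SvlmJ-C57/BL6J background at embryonic day 12.5, and polyadenylated RNA was sequenced from 2 libraries, named replicate 1 and replicate 2, each a pool of 2 PPF pairs. There was no mutant, treated or other control group, and the labels used here do not say whether the pools were drawn from different litters. The study's stated purpose was to rank candidate genes for congenital diaphragmatic hernia by their expression in this tissue. Levels are therefore the main result, and the only comparison the design allows is between the libraries.

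Wnt proteins bind Frizzled receptors. With an Lrp coreceptor, this recruits Dishevelled and stops a destruction complex built on Axin and Apc from marking beta-catenin for degradation, so that beta-catenin enters the nucleus and acts through Lef and Tcf factors. R-spondins acting on Lgr receptors, and the membrane ligases Znrf3 and Rnf43, set how much receptor stays on the surface. A separate branch without beta-catenin uses Ror and Ryk receptors and the Vangl, Celsr and Prickle proteins to orient cells within a tissue, and Wnt and beta-catenin signals are known to act in embryonic muscle and connective tissue.

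The libraries held 26370253 and 23255957 counts in replicates 1 and 2. All 10 markers of PPF mesenchyme, a list with Gata4, Zfpm2, Tbx5 and Wt1, were expressed. The list summed to 6212 and 6316 TPM, the deposited length-normalised transcript abundance, in replicates 1 and 2. Most of that sum came from the collagen genes Col1a1 (2798 and 2822 TPM) and Col3a1 (2507 and 2535 TPM), while Gata4 had 173 and 178 TPM. Wt1 was also in the mesothelium list. The skeletal muscle list summed to 3413 and 3540 TPM, and that of erythroid cells to 5489 and 5097 TPM, so the samples were mixtures of cell types. In such whole-tissue RNA, fewer cells of a type and less RNA per cell cannot be told apart. Among the marker lists of other cell types, 3 showed the widest ratios between the libraries. The hepatoblast list summed to 109 and 286 TPM, the neuron list to 19.7 and 45.4 TPM, and the mesonephros and gonad list to 33.7 and 13.4 TPM in replicates 1 and 2. Lung and gut epithelium markers summed to 5.997 and 6.08 TPM, with Nkx2-1 and Cdx2 at 0 counts in both libraries.

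Of the 42 members, 41 reached 1 TPM in both libraries, against 63.8% of the 20411 protein-coding genes and 44.4% of all listed features. The exception was Celsr3. At 10 TPM in both libraries there were 31 members, against 46.6% of protein-coding genes. The median member stood at 42.2 TPM in replicate 1 and 41.1 TPM in replicate 2, while the median protein-coding gene with at least 1 TPM in both libraries stood at 26.7 and 27.2 TPM. By mean level 5 members lay above 100 TPM, 12 between 50 and 100 TPM, 15 between 10 and 50 TPM, 9 between 1 and 10 TPM, and 1 below. Levels below are TPM, which is per transcript length, in replicate 1 and then replicate 2, and means carry the SD over these n = 2 libraries.

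**Figure D1:**
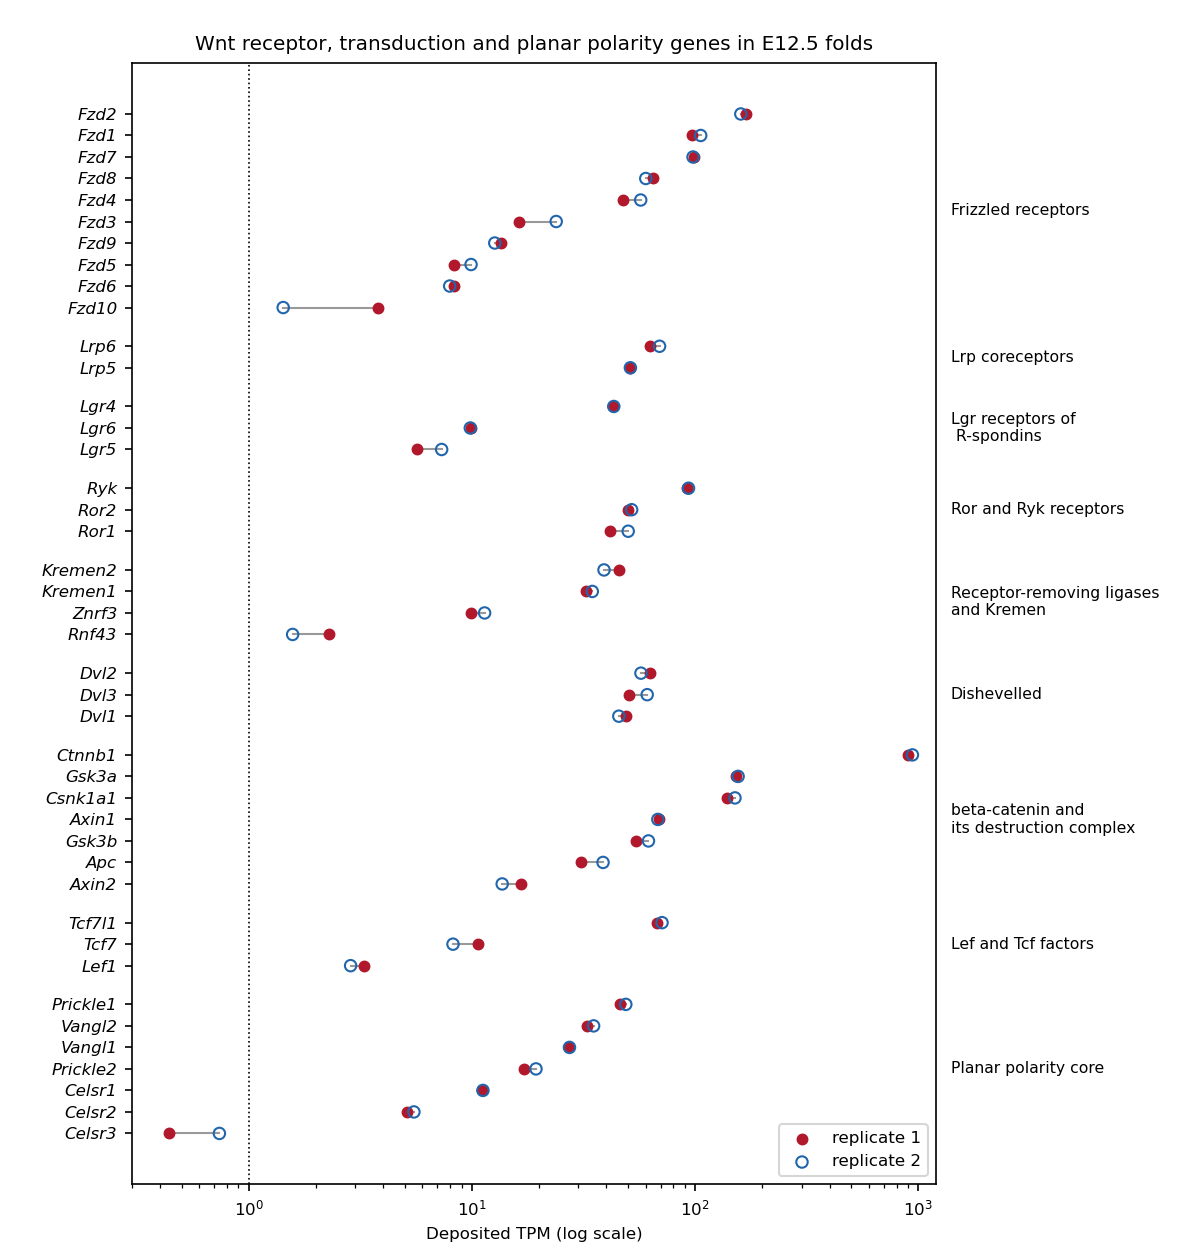
Level of each member in TPM on a log axis, grouped by role, with filled red points for replicate 1, open blue points for replicate 2 and a dotted line at 1 TPM. Ctnnb1 is highest at 897 and 941 TPM, Celsr3 is the only member left of the line, and the points of a gene lie widest apart for Fzd10 (3.79 and 1.43 TPM).

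All 10 Frizzled receptor genes were expressed, and they differed widely in level. Fzd2 was the highest at 169 and 160 TPM (165 ± 6.40), at the 93.4th percentile of expressed protein-coding genes. Fzd1 had 96.7 and 106 TPM and Fzd7 had 98.4 and 97.9 TPM, so the ranges of these genes overlapped and their order was not resolved. Fzd8 followed at 64.5 and 60.1 TPM. Fzd4, also a receptor for the non-Wnt ligand norrin, had 47.7 and 57.0 TPM. These 5 genes made up most of the family, 477 of 527 TPM in replicate 1 and 481 of 537 TPM in replicate 2. Fzd3, known for axon guidance and planar polarity, came next at 16.2 and 23.9 TPM. TPM divides by the length given in the files, which was 33.0% of the GENCODE M21 exon length for Fzd3, 54.8% for Fzd4 and 56.0% for Fzd8. Fzd9 had 13.5 and 12.7 TPM, and Fzd5 and Fzd6 lay together at 8.32 and 9.91 TPM and at 8.32 and 7.95 TPM. Fzd5 shared 17.8% of its exon bases with Gm38058, a transcript on the other strand that was not analysed here. Fzd10 was the lowest at 3.79 and 1.43 TPM, from 96 and 31 counts, with 95% Poisson intervals for counting error of 3.07 to 4.62 and 0.97 to 2.03 TPM. Apart from Fzd1 with Fzd7 and Fzd5 with Fzd6, no neighbours in this order overlapped between the libraries.

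The 3 highest Frizzled genes were also the 3 most alike in sequence. Over aligned coding bases Fzd1 and Fzd2 were 82.0% identical, and Fzd7 was 78.6% identical to each of them. The next most alike were Fzd5 and Fzd8 at 76.3%, which differed in level, and Fzd9 and Fzd10 at 71.6%, while Fzd3 and Fzd9 were the least alike at 58.9%. Together Fzd1, Fzd2 and Fzd7 summed to 364.4 and 364.0 TPM, and Fzd2 held 32.1% and 29.8% of the family sum. Since near-identical copies can exchange reads when counted, the longest stretches that these genes share are shown, read from GENCODE M21 transcripts (GRCm38).
Fzd1 with Fzd2: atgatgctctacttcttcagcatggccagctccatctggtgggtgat
Fzd1 with Fzd7: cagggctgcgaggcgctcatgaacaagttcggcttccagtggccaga
Fzd2 with Fzd7: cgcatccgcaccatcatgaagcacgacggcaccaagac
The stretch of Fzd1 with Fzd2 is 47 bases long and lies in the coding exon at chr5:4756331-4756377 on the minus strand in Fzd1 and at chr11:102605740-102605786 on the plus strand in Fzd2. That of Fzd1 with Fzd7, also 47 bases, lies at chr5:4756964-4757010 on the minus strand and at chr1:59483344-59483390 on the plus strand. The 38 bases of Fzd2 with Fzd7 lie at chr11:102606064-102606101 and chr1:59484298-59484335, both on the plus strand. No run of 50 bases in any transcript of a Frizzled gene was found in another Frizzled gene, and for Fzd1, Fzd2 and Fzd7 none was found in any other gene of the annotation.

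**Figure D2:**
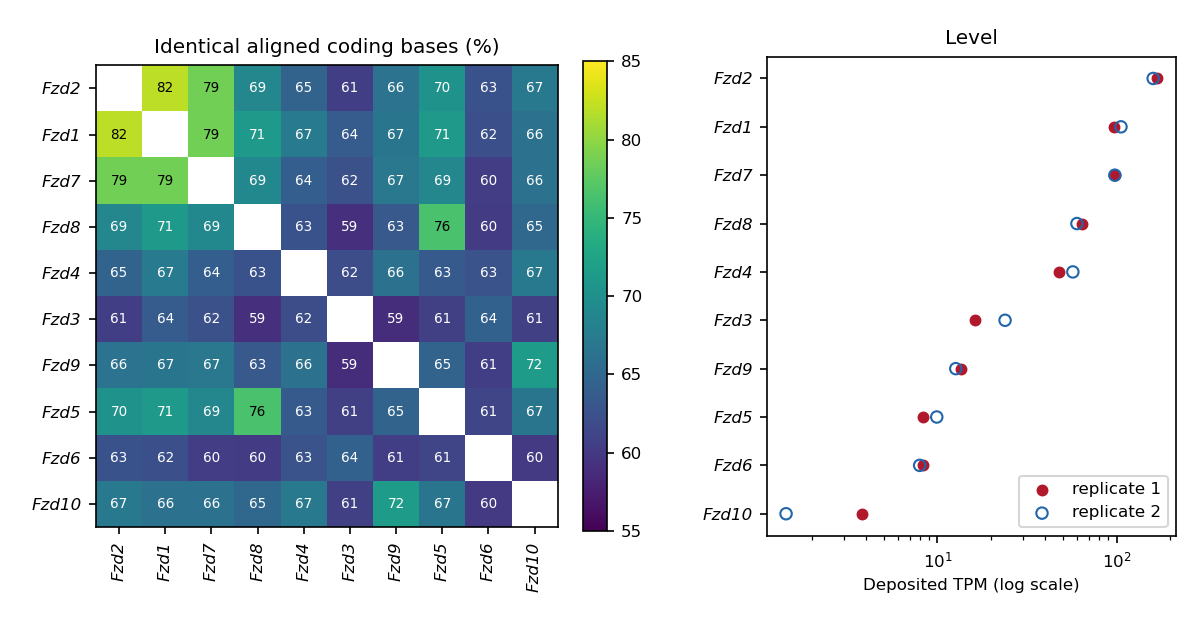
Left, the percentage of identical aligned coding bases for each pair of Frizzled genes (colour scale and printed values), with genes ordered by level; right, the TPM of the same genes on a log axis, filled red points for replicate 1 and open blue points for replicate 2. The 3 pairs among Fzd1, Fzd2 and Fzd7 have the highest identity (78.6% to 82.0%), and these genes have the highest levels.

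Frizzled proteins bind Dishevelled through a short conserved motif behind their last membrane segment, Lys-Thr-X-X-X-Trp. A search of the coding strand for its codons in frame found exactly 1 match in each of the 10 Frizzled coding sequences, against 2.11% of 21482 protein-coding genes with at least 1. The 36 bases around it are printed from the 5′ end for 8 of the genes, in order of level, because all these receptors share the site although their levels differ. Capitals mark the Lys-Thr and Trp codons.
Fzd1: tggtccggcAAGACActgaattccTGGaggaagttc
Fzd7: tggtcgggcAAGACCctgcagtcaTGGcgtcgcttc
Fzd4: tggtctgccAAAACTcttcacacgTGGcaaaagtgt
Fzd3: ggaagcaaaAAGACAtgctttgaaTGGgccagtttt
Fzd9: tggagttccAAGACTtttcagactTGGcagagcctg
Fzd5: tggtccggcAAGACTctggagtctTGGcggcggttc
Fzd6: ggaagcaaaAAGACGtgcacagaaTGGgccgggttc
Fzd10: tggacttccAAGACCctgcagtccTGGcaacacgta
In Fzd1, Fzd2 and Fzd7 the motif was followed by 17 codons before the stop codon. Longer tails were found in other genes, with 33 codons in Fzd4, 50 in Fzd10, 54 in Fzd9, 55 in Fzd5 and 74 in Fzd8, and longest in Fzd3 with 159 and Fzd6 with 206. The motif of Fzd1 lies at chr5:4755697-4755732 on the minus strand and that of Fzd7 at chr1:59484598-59484633 on the plus strand.

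Both Lrp coreceptors of the beta-catenin branch were expressed at like levels. Lrp6 had 62.9 and 69.3 TPM (66.1 ± 4.56) and Lrp5 had 51.0 and 51.3 TPM (51.1 ± 0.206). Lrp6 was the higher in both libraries, 1.23 and 1.35 times Lrp5, but the files give Lrp6 71.8% of its GENCODE M21 exon length and Lrp5 all of it.

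Among the Lgr receptors, which bind R-spondins, Lgr4 predominated. It stood at 43.0 and 43.2 TPM, 73.4% and 71.6% of the sum of the 3 genes. Lgr6 had 9.88 and 9.84 TPM, at a length in the files of 55.5% of that in GENCODE M21. Lgr5, a beta-catenin target and stem cell marker in several epithelia, was lowest at 5.68 and 7.32 TPM. The Lgr ranges did not overlap.

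Ryk and Ror receptors, which bind Wnt ligands outside the Frizzled family, were all expressed. Ryk, an atypical receptor with an inactive kinase domain, reached 92.2 and 93.4 TPM, 1.84 and 1.80 times Ror2. Ror2, a receptor for Wnt5a, had 50.04 and 52.0 TPM, and Ror1 had 41.4 and 50.1 TPM, overlapping Ror2.

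The membrane ligases that remove Frizzled receptors from the surface were low, and the Kremen genes, whose products bind the Lrp inhibitor Dkk, were higher. Znrf3 had 9.93 and 11.4 TPM and Rnf43 had 2.28 and 1.57 TPM, from 127 and 75 counts. Kremen2 had 45.5 and 39.1 TPM and Kremen1 had 32.3 and 34.6 TPM. None of these 4 ranges overlapped with its neighbour in the order.

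The 3 Dishevelled genes, which pass the Frizzled signal on to both branches, were expressed at nearly even levels. Dvl2 had 63.0 and 57.2 TPM. Dvl3, at 76.4% of its GENCODE M21 exon length, had 50.7 and 61.0 TPM. Dvl1 was lowest at 49.3 and 45.5 TPM, though in replicate 1 its Poisson interval (47.2 to 51.4 TPM) overlapped that of Dvl3 (48.5 to 52.9 TPM). Dvl2 and Dvl3 overlapped, and the sum of the 3 genes was 163 and 164 TPM. The files do not say whether counting used strand, and in GENCODE M21 Dvl2 shared 18.3% of its exon bases with Acadvl on the other strand, which had 73.4 and 68.7 TPM.

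Ctnnb1, which encodes beta-catenin, was the highest member at 897 and 941 TPM (919 ± 30.9), the 99.6th percentile of expressed protein-coding genes. Beta-catenin is also a part of cadherin junctions, and its amount is known to be set largely by the stability of the protein. The scaffold genes of the destruction complex lay far lower. Axin1 had 69.0 and 68.1 TPM, and the Ctnnb1 level was 13.0 and 13.8 times that of Axin1. Apc had 30.9 and 38.7 TPM, and Ctnnb1 was 29.1 and 24.3 times as high. Of its kinase genes, Gsk3a and Csnk1a1 lay above both scaffolds and Gsk3b between Axin1 and Apc. Gsk3a had 152 and 156 TPM and its paralog Gsk3b 54.5 and 61.8 TPM. Csnk1a1, which encodes the casein kinase that primes beta-catenin, had 139 and 151 TPM. The Gsk3a level was 2.79 and 2.52 times that of Gsk3b, but the length used for Gsk3a was 77.9% of its GENCODE M21 exon length and that for Gsk3b all of it. In addition, 28.3% of the Gsk3a exon bases were shared with the antisense gene 9130221H12Rik (105 and 116 TPM), and reads from these genes cannot be told apart without strand. Ctnnb1 shared 14.6% of its exon bases with Ulk4 on the other strand (44.2 and 40.5 TPM). Axin2, both a scaffold and a classical beta-catenin target, was lowest in this group at 16.6 and 13.7 TPM, and Axin1 was 4.17 and 4.98 times higher.

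Of the nuclear factors among the members, Tcf7l1, known mainly as a repressor of Wnt targets, led with 67.8 and 71.1 TPM. It made up 82.9% and 86.5% of the sum of Tcf7l1, Tcf7 and Lef1. Tcf7 had 10.7 and 8.23 TPM and Lef1 had 3.28 and 2.86 TPM. Lef1 shared 13.7% of its exon bases with the antisense gene Gm43352, which was not analysed here. No ranges overlapped, and Tcf7l1 was 20.7 and 24.8 times Lef1. Tcf7l2, the fourth gene of the family, a known marker of muscle connective tissue fibroblasts and not one of the members, had 22.2 and 22.7 TPM, so that Tcf7l1 was 3.06 and 3.13 times higher.

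Lef1, Tcf7, Axin2, Lgr5, Znrf3 and Rnf43 are commonly used as readouts of beta-catenin signalling because it induces them in many tissues. All 6 were expressed, and their median was 7.81 TPM in replicate 1 and 7.77 TPM in replicate 2, below the medians of 42.2 and 41.1 TPM over all members.

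**Figure D3:**
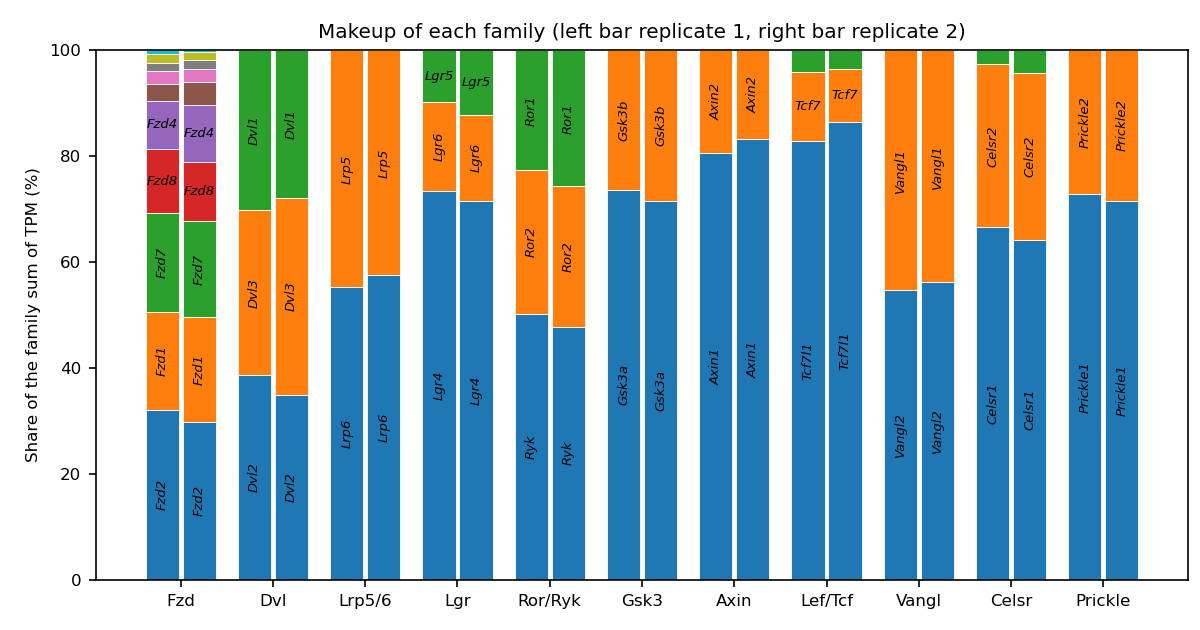
Share of each gene in the TPM sum of its family, in percent, as stacked bars with replicate 1 on the left and replicate 2 on the right of each pair; segments under 6% carry no name. Only members are counted, so Tcf7l2 is left out of the Lef and Tcf bars. Tcf7l1 (82.9% and 86.5%), Lgr4 (73.4% and 71.6%) and Axin1 make up most of the sums shown, while the Dishevelled genes are nearly even.

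The planar polarity core was expressed except for Celsr3. Prickle1, a cytoplasmic core protein gene, was highest at 46.2 and 48.9 TPM, 2.70 and 2.53 times its paralog Prickle2 at 17.1 and 19.4 TPM. Vangl2, whose loss causes open neural tube defects in mice, had 32.8 and 35.1 TPM and Vangl1, at 56.4% of its GENCODE M21 exon length, had 27.1 and 27.4 TPM. The Celsr genes, which encode seven-pass cadherins, were lower. Celsr1 had 11.1 and 11.2 TPM and Celsr2 had 5.12 and 5.50 TPM. Celsr3, known mainly from neurons, had 0.439 and 0.739 TPM from 43 and 62 counts, with Poisson intervals of 0.318 to 0.592 and 0.567 to 0.947 TPM, both below 1 TPM. No neighbouring ranges in this group overlapped, and Celsr1 was 25.2 and 15.2 times Celsr3.

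Other genes of the pathway were described from further lists. These overlapped in part, as Nkd1, Notum, Dkk1 and Dkk4 were each in the list of target genes and in another list. Of 19 Wnt ligand genes 8 were expressed, with a median of 0.744 TPM. The highest were Wnt11 at 46.3 and 39.8 TPM, Wnt2b at 44.0 and 42.1 TPM and Wnt5b at 24.7 and 21.3 TPM. The lowest were Wnt8a with 1 and 0 counts and Wnt3a with 0 in both libraries, which allows up to 3 counts in each. Of 19 secreted modulators and Wnt export genes 16 were expressed, with a median of 14.6 TPM. These were led by the secreted Frizzled-related inhibitors Sfrp1 (577 and 606 TPM) and Sfrp2 (330 and 407 TPM), both above every Frizzled gene, and by the Wnt carrier Wls (163 and 175 TPM). Lowest were Rspo4 at 0.597 and 0.464 TPM and Dkk4 at 0 counts.

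All 30 other genes of the beta-catenin branch were expressed, with a median of 50.4 TPM. The corepressor gene Ctbp1 (317 and 311 TPM) and the casein kinase genes Csnk1g2 (247 and 242 TPM) and Csnk1d (171 and 173 TPM) were highest, and Nkd2 (10.99 and 11.7 TPM) and Apc2 (3.86 and 4.82 TPM), the paralog of Apc, lowest. All 25 other planar polarity genes were also expressed, with a median of 44.9 TPM. Among them the small GTPase genes Rac1 (321 and 327 TPM) and Rhoa (207 and 201 TPM) and the receptor gene Ptk7 (259 and 252 TPM) lay above all 7 core genes, and the ciliary gene Wdpcp (4.13 and 4.36 TPM) and Prickle4 (5.86 and 6.35 TPM) were lowest. Of 15 target genes outside the members 10 were expressed, with a median of 3.57 TPM. The most abundant were Ccnd1, a cell cycle gene, at 139 and 146 TPM, Myc at 78.4 and 85.5 TPM and the feedback gene Nkd1 at 37.2 and 29.99 TPM, while Dkk4, Cdx1 and Cdx2 had 0 counts in both libraries.

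**Figure D4:**
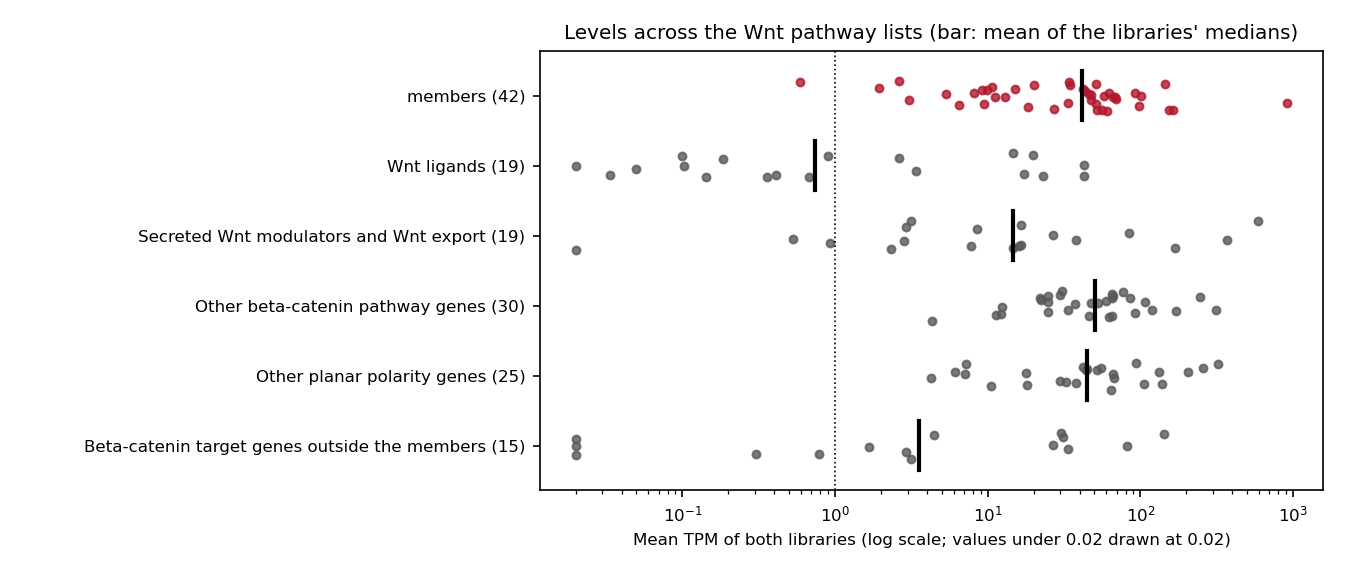
Mean TPM of both libraries for each gene of the members (red) and of 5 lists of other Wnt pathway genes (grey) on a log axis, with list sizes in brackets, a dotted line at 1 TPM and a black bar at the mean of the libraries' medians. The bar of the members lies at 41.7 TPM and that of the Wnt ligands at 0.744 TPM.

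Replicate 1 was set against replicate 2 with an exact two-sided binomial test of each gene's counts at library sizes scaled by the trimmed mean of M values (TMM), with Benjamini-Hochberg adjustment over the 19433 genes with at least 10 counts. These p-values measure counting error between these libraries only, compare no conditions and can reflect technical spread. Fzd10 was the only member past both an adjusted p of 0.05 and 2-fold. It was higher in replicate 1 by a log2 ratio of 1.43 (95% interval 0.85 to 2.08, adjusted p = 7.64e-06, exact binomial test), in a comparison where 0.504% of tested genes were called higher and 0.643% lower. Its counts were among the lowest of the members. Other genes called at 2-fold included 5 of 6 tested mesonephros and gonad markers, all higher in replicate 1, namely Pax8 (69 and 3 counts), Emx2 (518 and 179 counts), Lhx1, Cdh16 and Amhr2. Lower in replicate 1 were 6 of 7 hepatoblast markers (Afp, Alb, Apob, Ttr, Hnf4a and Apoa1). So were 5 of 8 neuron markers, which included Elavl3, Tubb3, Stmn2 and Dbh. The part of all these marker genes in the Fzd10 difference was not tested.

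By adjusted p alone 9 of 42 members were higher and 11 lower in replicate 1, against 8.52% and 8.7% of tested genes. With this test a gene with more counts passes at a smaller difference. Of 12999 tested expressed protein-coding genes, 1441 were higher and 1477 lower. Besides Fzd10, the members higher were Rnf43, Tcf7, Axin2, Kremen2, Dvl2, Dvl1, Fzd8 and Fzd2. Their log2 ratios fell in this order from 0.57 for Rnf43 to 0.12 for Fzd2. Lower in replicate 1 were Fzd3, Lgr5, Apc, Ror1, Dvl3, Fzd4, Gsk3b, Lrp6, Fzd1, Csnk1a1 and Ctnnb1, with log2 ratios between -0.52 for Fzd3 and -0.03 for Ctnnb1. Within the Frizzled and Dishevelled families members thus lay on both sides, with Dvl1 at 0.15 and Dvl2 at 0.18 but Dvl3 at -0.23, while the sum of the Dishevelled genes was nearly the same in both libraries. None of the 7 planar polarity core genes passed, although Celsr3 had a log2 ratio of -0.71 (adjusted p = 0.0794, exact binomial test). Of the commonly used target genes Rnf43, Tcf7 and Axin2 were higher and Lgr5 lower, while Lef1 (0.24) and Znrf3 (-0.16) were not past the threshold. The calls of Lgr5 (adjusted p = 0.106) and Tcf7 (adjusted p = 0.103, exact binomial test) were lost after a correction for length and GC content.

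Most of these differences were small. Of the members 34 lay within 1.2-fold and 40 within 1.5-fold between the libraries, 81.0% and 95.2%, against 84.4% and 97.2% of expressed protein-coding genes. The median member had a log2 ratio of -0.01, and the median of all tested genes was 0.01. When the test allowed for a spread of 7.99% (the coefficient of variation that edgeR estimated over these libraries), 1 member, Fzd10, stayed past the threshold (adjusted p = 0.00345, edgeR exact test), against 0.334% of tested genes higher and 0.417% lower. Because this spread was estimated from the libraries being compared, it includes the differences under test. The 9 members higher in replicate 1 had a median transcript GC content of 56.5% and a median length of 3628 bases, and the 11 lower members 46.1% and 5762 bases. Over all genes with an adjusted p under 0.05 the same medians were 52.1% and 2776 bases for those higher and 46.9% and 6553 bases for those lower. With the correction for length and GC content 5 members were higher and 6 lower, against 6.44% and 6.69% of the 18163 genes tested, and Fzd10 kept a log2 ratio of 1.37.

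**Figure D5:**
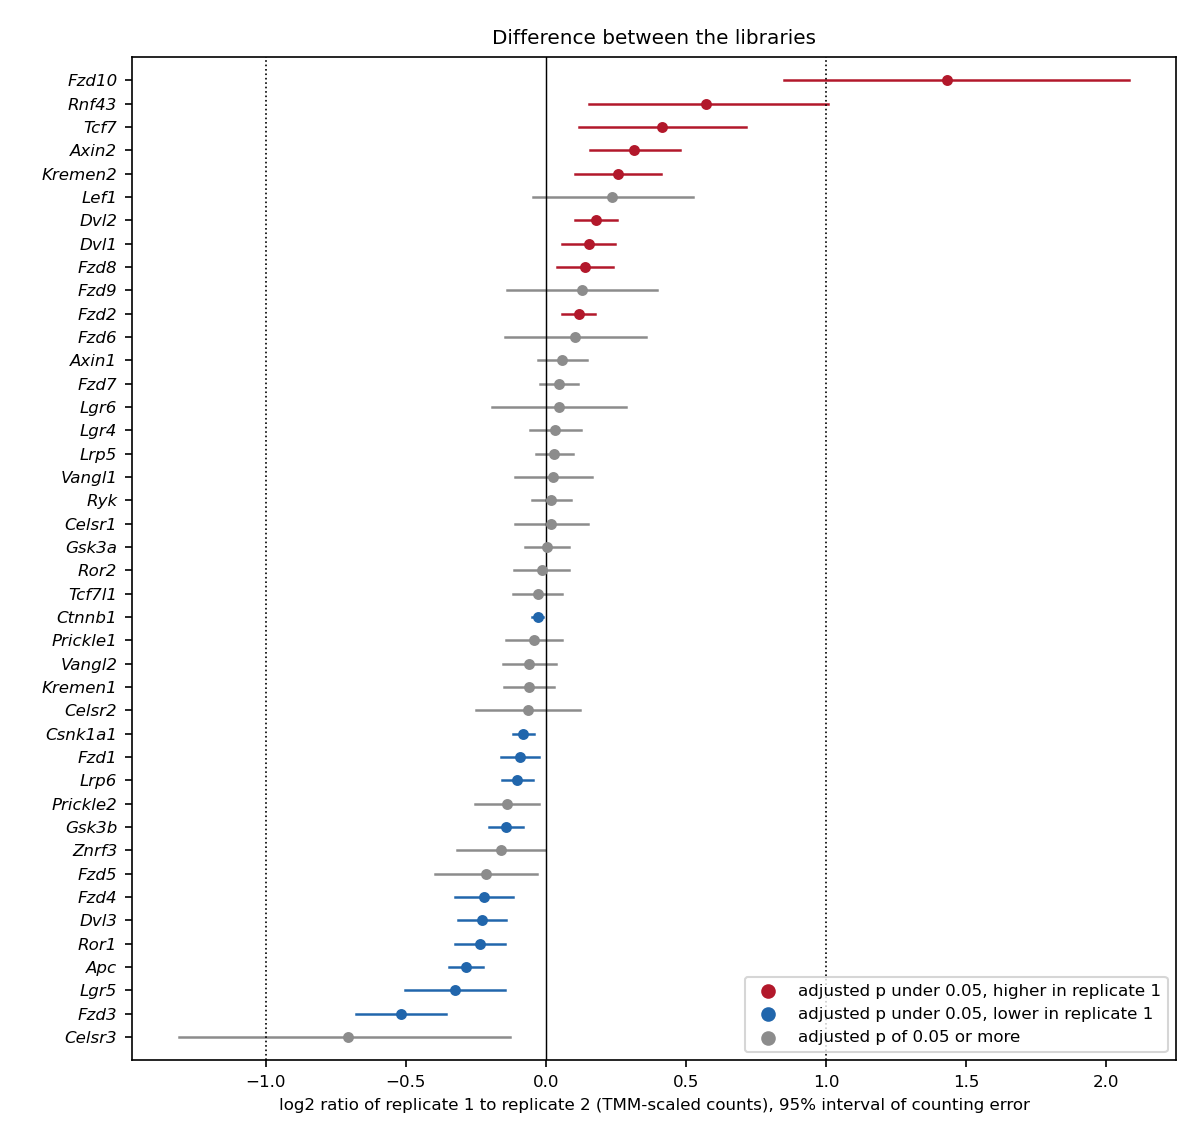
Log2 ratio of replicate 1 to replicate 2 for each member from TMM-scaled counts, with 95% intervals that cover counting error only; red and blue mark adjusted p under 0.05 (higher and lower in replicate 1), grey the rest, and dotted lines 2-fold. Fzd10 at 1.43 is the only coloured point beyond a dotted line, and the interval of Celsr3 at -0.71 is among the widest.

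Of the other pathway genes, 5 of 13 tested Wnt ligands were higher in replicate 1 at an adjusted p under 0.05 and none lower. Over all tested genes these shares were 8.52% higher and 8.7% lower. Wnt7a was called at 2-fold, higher in replicate 1, with 22 and 0 counts. Its ratio was 6.45-fold against a floor of 3 counts in replicate 2, with the 22 counts of replicate 1 taken as exact. This is not a lower bound, as the interval for counting error in both libraries began at a log2 ratio of 2.27. Of 18 tested secreted modulators 4 were higher and 4 lower, of 30 other beta-catenin genes 5 and 6, and of 25 other planar polarity genes 2 and 5. Among 12 tested targets outside the members 2 were higher, Nkd1 and Notum, and both are also counted in the lists above. The mesoderm factor gene T, with 4 and 23 counts, was the 1 lower, at 2-fold.

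The promoters of the members were mostly rich in CpG. A RefSeq promoter window was held for 28 members, and 25 of these (89.3%) had an observed to expected CpG ratio of at least 0.6, against 74.4% of expressed protein-coding genes with a window and 53.1% of all protein-coding genes with one. The median ratio of the members, 0.776, was like that of the expressed genes, 0.780. Where a gene had several windows, its highest ratio was used.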

How the data were processed

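The submitters deposited, for each library, integer read counts per gene with gene lengths and TPM values. Per the submitters' processing notes, STAR 2.4.0a, SAMtools 1.3 and featureCounts were used, and mm9 is named as the build. The coordinates in the files instead matched GENCODE M21 on GRCm38: of 35656 shared symbols 56.3% had identical positions and 99.8% overlapped. Coordinates are therefore given as GRCm38. The deposited TPM values were count over length scaled to a common total over all listed features, with a largest difference of 4.73e-11 on recomputation. Libraries were prepared with a stranded kit after polyA selection, per the labels' protocols, but no source used here states the strand setting of the counting. Lengths in the files differ from the annotation for some genes (Fzd3 had 33.0% of its GENCODE M21 length), which affects TPM.

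Expressed means at least 1 TPM in both libraries. The library comparison used the deposited counts of genes that reached 10 counts in the sum of both libraries, TMM factors of 1.0011 and 0.9989 from edgeR 4.0.16 (R 4.3.3) and scipy 1.17.1. Log2 ratios are replicate 1 over replicate 2 from counts + 0.5, and for Ctnnb1 that ratio was 2.72% higher than the TPM ratio. The sources used here name no molecular identifiers, so reads can be PCR copies, and intervals and floors of 3 counts cover counting error only. The calculation was checked on simulated Poisson counts with changes planted in genes of at least 100 counts. These counts had no added spread between libraries, so they do not test how the comparison handles such spread. The alternatives were DESeq2 1.42.0 size factors, library totals, other count, fold and TPM thresholds, edgeR's exact test with a common dispersion, TPM over fewer features, and a correction for length and GC content that was chosen after seeing the data. Neighbouring levels are called overlapping where the ranges over the libraries overlap. The planned comparison of proteins was replaced by one of coding sequences, and no sequence from mouse chromosome 18 is printed. CpG ratios come from RefSeq windows of 250 bases before to 50 after a gene's start, with the highest ratio taken where a gene had several windows.

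All 42 members are named. Of each pathway list the 3 highest, the 2 lowest and any gene called at 2-fold are named, of the marker lists those called at 2-fold (their 2 highest, also in the rule, are left out for length, and some called genes are not reported here), and of genes overlapping a member those with at least 10% of its exon bases. Dchs2, Ahsp and Adgre1 are not analysed here. The members and lists were chosen with earlier results of these data known.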

Additional observations from a re-analysis of the deposited data

How the results depend on the processing

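The median member level of 41.7 TPM became 46.5 TPM when features under 200 bases were left out of the TPM total, 51.5 TPM over protein-coding genes alone and 40.3 TPM over the 37 members that share under 10% of their exon bases. Without replicate 1 and without replicate 2 it was 41.1 and 42.2 TPM. The number of members expressed was 41 at 0.5 TPM and 38 at 5 TPM. Fzd10 was called under each alternative run. The 223 genes called at 2-fold over the whole table became 71 with at least 100 counts, 429 at 1.5-fold and 104 with edgeR's exact test, where 146 genes had an adjusted p under 0.05, against 3346. With that test 1 member was higher and 0 were lower in replicate 1 at an adjusted p under 0.05, and 2 and 2 at an unadjusted p under 0.05. After the correction for length and GC content 5 members were higher and 6 lower, against 2386 of 18163 genes in both directions, and 10 of the 20 calls were shared. Those of Fzd2, Fzd8, Kremen2, Dvl1, Tcf7, Lrp6, Lgr5, Ctnnb1, Gsk3b and Csnk1a1 were lost, Lrp5 also passed (adjusted p = 0.0232, exact binomial test), and Csnk1a1 changed sign to a log2 ratio of 0.039 (adjusted p = 0.174); the cause was not tested. Fzd1 and Ctnnb1 lost their calls with library totals, and Fzd1 and Rnf43 with a minimum of 1 count. DESeq2 size factors changed no member's call. Depth limited Fzd10, Rnf43 and Celsr3 most. No paired analysis was possible because there was a single group.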
